A study of Mus musculus with 42 samples.

Results

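Metallothionein 1 (Mt1), metallothionein 2 (Mt2) and the zinc exporter Slc30a1 (ZnT1) were followed through arsenite stress and recovery in mouse cell lines. The 3 genes were taken by name, out of 14010 genes with 3′READS reads and 12364 genes in the RNA-seq tables. 3′READS sequences the 3′ end of polyadenylated transcripts, so that each read marks 1 cleavage and polyadenylation site (PAS) and a count needs no correction for gene length. The PASs of a gene were those inside it or up to 4000 nt past its end, before the next gene on its strand. This gave 34 of 99725 PAS positions.

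Of the 42 libraries, 38 were 3′READS and 4 were strand-specific RNA-seq. All came from NIH3T3, an embryonic fibroblast line, or C2C12, a muscle line used as dividing myoblasts (MB) and after differentiation as myotubes (MT). The labels name the same strain, C57BL/6, for all samples and no genetic change, and each line is 1 immortal line of cells kept in culture, with no animal behind a replicate. Stressed cells (AS) had 250 µM sodium arsenite for 1 h, recovering cells (RC4, RC8, RC12 and RC24) were then washed and kept in normal medium for 4, 8, 12 or 24 h, and non-treated cells (NT) had normal medium alone. NIH3T3 total RNA had 3 NT and 3 AS libraries, numbered 1, 2 and 4 in the labels, and 1 library at each recovery time, all numbered 4. The RNA-seq libraries, numbered 3, were NT at 0 h, AS, NT at 4 h and RC4, 1 of each. The same 4 conditions were labelled for the last 1 h with 50 µM 4-thiouridine and divided into newly made RNA (4sU) and the unlabelled flow-through (Ft), 1 library of each. NIH3T3 cytoplasmic lysates, 2 NT and 2 AS, gave an input and an immunoprecipitate of the RNA-binding protein TIA1. C2C12 gave 2 NT libraries of total RNA from MB and 2 from MT, and 1 cytoplasmic library of each of the 4 conditions from MB and from MT.

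Metallothioneins are small, cysteine-rich proteins that bind zinc, copper and cadmium, and their genes are classic targets of the metal-responsive transcription factor Mtf1. Mtf1 binds metal response elements, short promoter motifs with the core TGCACNC or TGCGCNC. Slc30a1 moves zinc out of the cell across the plasma membrane and is a further Mtf1 target. Arsenite binds thiol groups of proteins, and metallothionein genes are known to respond to it.

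In the mm9 build, Mt2 (ENSMUSG00000031762.6) lies at chr8:96696518-96697467 and Mt1 (ENSMUSG00000031765.6) next to it at chr8:96702989-96704225, both on the plus strand. Slc30a1 (ENSMUSG00000037434.7) lies at chr1:193730646-193737126, also on the plus strand. Both metallothionein genes ended at 1 place: 99.9% of the 188047 reads of Mt1 and 99.7% of the 204774 reads of Mt2 fell on 1 PAS each. Slc30a1 had a proximal PAS (pPAS) with 23.3% of its 10403 reads, a distal PAS (dPAS) with 43.7% and a second distal PAS 46 nt further on with 30.9%. All these PASs lay in the 3′UTR of the last exon or within 2 nt of its annotated end. The 30 nt that end at each PAS, on the plus strand of mm9, are shown with a match to the poly(A) signal AATAAA or its variants ATTAAA and TATAAA in capitals, where the match ends 10 or more nt before cleavage.

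Mt1 PAS, chr8:96704198-96704227: cgtgaatAATAAAagcctgtttgagtctaa
Mt2 PAS, chr8:96697435-96697464: actgacAATAAAagccgttgacttgattaa
Slc30a1 pPAS, chr1:193733955-193733984: ttagggggataAATAAAattgttactggaa
Slc30a1 dPAS, chr1:193737038-193737067: tgtacTATAAAtgttctatatgagacaaga
Slc30a1 second dPAS, chr1:193737084-193737113: catttATTAAAagttaagtagaaaaataaa

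AATAAA stood in the 45 nt before the most used PAS of 65.7% of 14012 genes, ATTAAA in 19% and TATAAA in 6.1%. Mt1, Mt2 and the pPAS of Slc30a1 carried the common signal, 13 to 18 nt before cleavage. Both distal PASs of Slc30a1 carried a variant 19 nt before it. The shares over genes count a match anywhere in the 45 nt, a wider rule than that of the marked matches. By that rule the second dPAS also held AATAAA, at the very end of its sequence. The 3′UTR was 132 nt in Mt1 and 140 nt in Mt2, against a median of 893 nt for the longest annotated 3′UTR of 19915 genes. In Slc30a1 the stretch from the stop codon to the pPAS was 350 nt, and the alternative stretch between pPAS and dPAS (aUTR) was 3083 nt. That aUTR held 64 TTTT matches, overlaps counted, and 5 ATTTA matches, while the 350 nt before it held 8 and 0. The 3′UTR of Mt1 held 1 TTTT match and that of Mt2 held 5, and neither held ATTTA.

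The promoter table of RefSeq (GRCm38.p6, 250 bases before to 50 after the start) held all 3 genes. TGCACNC and TGCGCNC, together the core of the metal response element, were searched on both strands, and they cannot match at the same bases. Mt2 held 4 matches, Mt1 held 3 and Slc30a1 held 2. Of 32851 promoters, 25.7% held 1 or more, 7.11% held 2 or more, 1.97% held 3 or more and 0.517% held 4 or more. Matches nearest to each annotated start are shown with the match in capitals, on the strand that carries it.

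Mt1, plus strand, chr8:94179080-94179108: ccagggagctcTGCACTCcgcccgaaaag
Mt2, minus strand, chr8:94172611-94172639: gcccctgggccTGCGCACgacccgaattc
Slc30a1, minus strand, chr1:191906800-191906828: tccgcggcgacTGCGCTCggcccggaggc

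The 3′READS libraries held 1048335 to 6974664 reads and the RNA-seq libraries 17136953 to 25193331. Levels are given as normalised RPM, reads per 1e6 assigned reads (RPM) after median-ratio scaling within a set of libraries, with the exact Poisson 95% interval where a single library is read. Such intervals cover counting error only. All 6 fibroblast markers had reads in NIH3T3 total RNA, where the 3 myoblast markers had none. The 7 myotube markers summed to 21164 and 22131 RPM in MT total RNA against 76.7 and 80.5 RPM in MB, and 7 of 7 were called higher in MT. The fibroblast markers were also abundant in C2C12, at 9598 to 15407 RPM in total RNA. The 3 myoblast markers were also higher in MT (543 and 683 RPM) than in MB (153 and 162 RPM), with Myod1 and Des called. The MT cytoplasmic NT library at 4 h stood apart for all 3 genes, and results that rest on it are given with and without it. RNA was measured in bulk, so that fewer cells of a type and less RNA per cell cannot be told apart.

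After 1 h of arsenite, all 3 genes were higher in NIH3T3 total RNA in each numbered pair of libraries. Mt1 was at 527, 922 and 1179.7 normalised RPM in NT and at 2246, 2694 and 2540.2 in AS, for numbers 1, 2 and 4. Every AS library was above every NT library, and the AS libraries were close to each other. Mt2 was at 72.8, 748 and 518 normalised RPM in NT and at 229.7, 2943 and 1227 in AS. The level of Mt2 differed more between numbers than between conditions, so that the groups overlapped although each pair rose. Slc30a1, far less abundant, was at 35.6, 9.22 and 35.1 normalised RPM in NT and at 88.8, 66.2 and 67.3 in AS, with no overlap. Of 8480 genes with enough reads, 1.11% had every AS library above every NT library, a rule that Mt2 did not meet. The share of genes that rose in every pair was not counted.

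**Figure D1:**
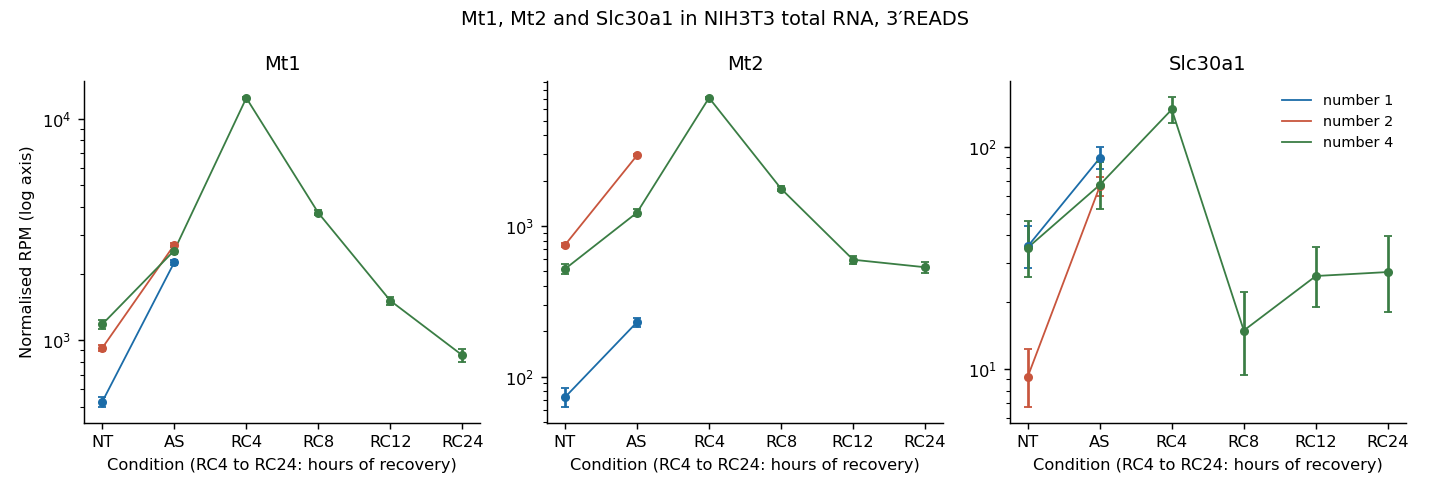
Normalised RPM (log axes) of Mt1, Mt2 and Slc30a1 in each NIH3T3 total RNA library by condition, with exact Poisson 95% intervals; lines join libraries of the same number. Each line rises from NT to AS, and number 4 is highest at RC4 for all 3 genes (12405, 7102 and 147 normalised RPM).

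The mean within-pair log2 difference was 1.58 ± 0.49 for Mt1, 1.63 ± 0.37 for Mt2 and 1.70 ± 1.01 for Slc30a1 (SD, n = 3 pairs). Without regard to pairs, edgeR's quasi-likelihood test gave log2 fold changes of 1.51 (SE 0.46) for Mt1, 1.72 (SE 1.07) for Mt2 and 1.48 (SE 0.59) for Slc30a1. None was called at a Benjamini-Hochberg adjusted p below 0.05, nor was any other of 9194 genes (percent called 0), with 19 genes at an unadjusted p below 0.05 and 0 called by DESeq2. Libraries of the same number deviated together, and with the number as a block Mt1 (log2 fold change 1.59, SE 0.19, adjusted p = 0.039) and Mt2 (1.63, SE 0.17, adjusted p = 0.024) were called higher. The blocked edgeR fit called 0.0908% of 9913 genes higher, 9 genes in all, and none lower. Slc30a1 missed the threshold there as well (1.72, SE 0.34, adjusted p = 0.22), and its pair number 2 rose most, 7.18-fold.

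The ratio of Mt1 to Mt2 reads differed more between numbers than between conditions. It was 7.24 in NT and 9.78 in AS for number 1, 1.23 and 0.916 for number 2, and 2.28 and 2.07 for number 4. In number 4 it stayed between 1.60 and 2.52 through recovery. Over the other 28 3′READS libraries it ran from 0.520 to 1.81, so the libraries of number 1 stood alone. In RNA-seq of coding sequence it was 0.362 to 0.547. Mt1 and Mt2 are close paralogs, with coding sequences 79.6% identical and 3′UTRs 57.1% identical. The longest run shared by the 3′UTRs was 10 nt, and by the coding sequences 20 nt.

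Recovery was followed in number 4 alone, so these values have no replicate and no test. Mt1 went from 1179.7 normalised RPM in NT (95% interval 1123 to 1239) and 2540.2 in AS to 12405 at RC4, 3754 at RC8, 1507 at RC12 and 854 at RC24. Its order was RC4, RC8, AS, RC12, NT and RC24, with no overlap of counting intervals between neighbours. The place of RC24 below NT holds against NT number 4 alone. Over all NT libraries of NIH3T3 total RNA, Mt1 ran from 527 to 1179.7 normalised RPM. RC24 lay within that range and RC12 above it. Mt2 went from 518 in NT and 1227 in AS to 7102 at RC4, 1769 at RC8, 597 at RC12 and 532 at RC24. For Mt2 the order was the same down to RC12, after which the intervals of RC12, RC24 and NT overlapped from one to the next.

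At RC4 Mt1 was 10.5-fold and Mt2 13.7-fold above NT, among the 0.49% and 0.33% of 6696 genes with as large a rise, and 11% of genes were 2-fold or more higher. At RC8 both were still 3.18- and 3.42-fold above NT, where 3.93% of genes were 2-fold or more higher. Slc30a1 took another course. It rose from 35.1 normalised RPM in NT (25.9 to 46.5) and 67.3 in AS to 147 at RC4 (128 to 168), 4.18-fold above NT, then stood at 14.9 at RC8 (9.42 to 22.3), 26.2 at RC12 and 27.3 at RC24. At RC12 and RC24, where 1.8% and 0.884% of genes were 2-fold or more higher, none of the 3 genes was. The RC8 value of Slc30a1 came from 23 reads and lay below NT by more than counting error, but not below the 9.22 of NT number 2.

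In RNA-seq of coding sequence, from cells of another number, Slc30a1 changed most and the metallothioneins least. Slc30a1 was at 7.72 and 7.86 normalised RPM in NT at 0 and 4 h, at 44.5 in AS and at 125 at RC4. That is 5.71-fold and 16.0-fold above the mean of NT, from 170, 156, 1140 and 2082 reads. Both NT libraries agree within counting error, and only 0.21% of 10658 genes rose as much in AS and 0.62% of 10670 at RC4. Mt1 was at 132 and 90.9 normalised RPM in NT, 183 in AS and 243 at RC4, and Mt2 at 314 and 251 in NT, 387 in AS and 445 at RC4. Mt1 was thus 1.64-fold above NT in AS, as were 4.76% of genes, and 2.18-fold at RC4, as were 12.27%. Mt2 was 1.37-fold above NT in AS (11.34% of genes) and 1.57-fold at RC4 (22.78%). In all, 2.05% of genes were 2-fold or more higher in AS and 14.4% at RC4. At RC4 the scaling mattered: median-ratio values stood 0.80 (log2) above those scaled by the library total, on which Mt2 was 0.15 (log2) below NT rather than 0.65 above, and Slc30a1 3.20 above. Per kb of coding sequence, Mt2 was at 1718, Mt1 at 724 and Slc30a1 at 5.12 normalised RPM in NT at 0 h, and at 2430.4, 1328 and 82.5 at RC4. How reads that fit both metallothionein genes were counted is not given in the sources used here.

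In cytoplasmic input of NIH3T3 each gene was again higher in AS than in NT. Mt1 was at 722 and 557 normalised RPM in NT and at 1381 and 751 in AS, Mt2 at 662 and 308 against 1387 and 725, and Slc30a1 at 20.0 and 16.6 against 35.5 and 61.5. Both AS libraries were above both NT libraries for each gene, as for 11.3% of 7257 genes. The log2 fold changes by edgeR were 0.76 (SE 0.44), 1.14 (SE 0.54) and 1.41 (SE 0.44), with an adjusted p of 1 for each. Without regard to number, no gene of 8605 was called (percent called 0), with 163 at an unadjusted p below 0.05. DESeq2 called 25, none of them Mt1, Mt2 or Slc30a1. Inputs of the same number deviated together (r = 0.67), with only 2 libraries a group. With the number as a block, edgeR called Mt2 higher (1.17, SE 0.24, adjusted p = 0.023). Mt1 (0.71, adjusted p = 0.31) and Slc30a1 (1.35, adjusted p = 0.056) were not called. That fit called 0.837% of genes higher and 0.116% lower.

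Labelling enriched RNA made in the last hour in 4sU and older RNA in Ft. In AS the hour of label was also the hour of arsenite, so RNA that escaped the label or the capture there can be new. In 4sU RNA, Slc30a1 was at 286 and 169 normalised RPM in NT at 0 and 4 h, at 959 in AS and at 642 at RC4. Its newly made RNA was thus highest during stress, 4.21-fold above the mean of NT, and 2.82-fold above it at RC4. Mt1 was at 1162 and 941 in NT, 2692 in AS and 4578 at RC4, and Mt2 at 1518 and 928, 3110 and 4832. Both metallothioneins rose about equally in AS (2.56- and 2.54-fold) and went on to 4.35- and 3.95-fold at RC4. All 3 were past 2-fold in both conditions, as were 3.49% of 8746 genes in AS and 13.3% of 9127 at RC4.

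In Ft, Mt1 was at 1573 and 1681 normalised RPM in NT, 3016 in AS and 8684 at RC4. Mt2 was at 2712 and 2271, then 4068 and 15879, and Slc30a1 at 39.2 and 28.8, then 109.6 and 280.1. At RC4 the rises in Ft were 5.34-fold for Mt1, 6.37-fold for Mt2 and 8.25-fold for Slc30a1, with 13.9% of 8279 genes 2-fold or more higher. In AS they were 1.85-, 1.63- and 3.23-fold, with 2.15% of 8291 genes 2-fold or more higher. Each gene rose more in 4sU than in Ft during stress, and more in Ft than in 4sU at RC4. Scaling by library total lowered the RC4 ratios by 0.30 (log2) in 4sU and 0.42 in Ft and turned no direction. The fractions were scaled separately, with 1 library per condition in each, so none of these ratios was tested.

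**Figure D2:**
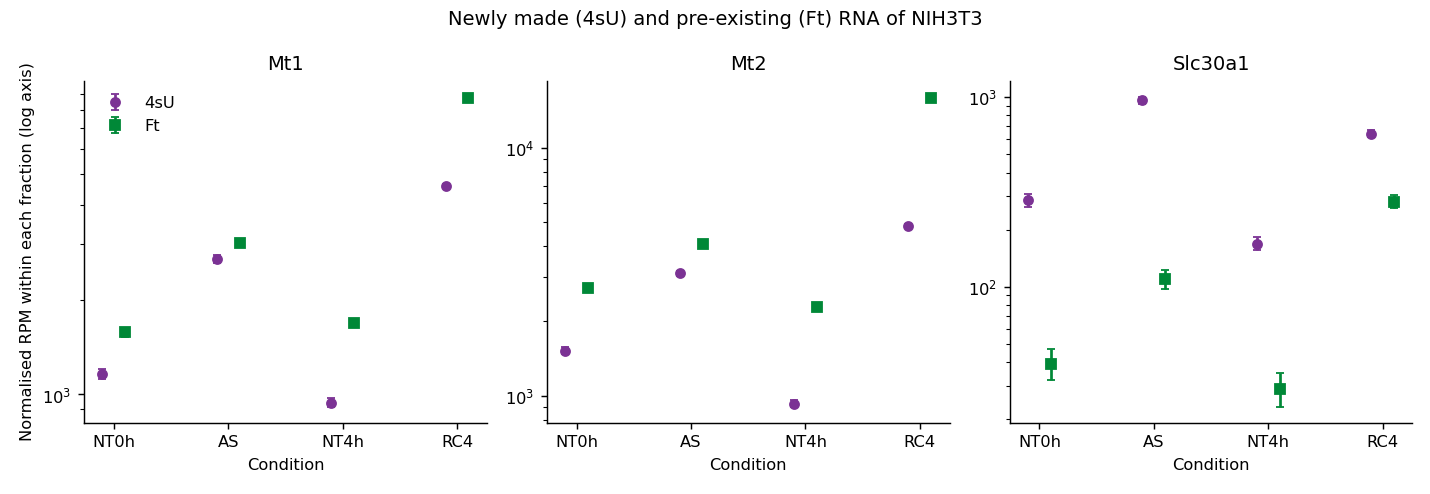
Normalised RPM (log axes) of each gene in newly made (4sU) and unlabelled (Ft) RNA of NIH3T3 in 4 conditions, 1 library each, with exact Poisson 95% intervals. Slc30a1 peaks in 4sU at AS (959) and in Ft at RC4 (280.1), while Mt1 and Mt2 are highest at RC4 in both fractions.

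The study reads log2(Ft/4sU) as RNA stability. On RPM scaled by library total, Mt1 was at 0.50 and 0.86 in NT at 0 and 4 h, Mt2 at 0.90 and 1.32 and Slc30a1 at -2.80 and -2.53. Slc30a1 was in the lowest 1.4% and 2.2% of 8645 and 9117 genes. In AS the values were 0.38, 0.60 and -2.92, and at RC4 0.85, 1.64 and -1.27. Slc30a1 thus moved up by more than 1 log2 unit at RC4, to the 18.4th percentile, while Mt2 reached the 97.1st. At RC4, Ft can also hold RNA made during stress, when Slc30a1 in 4sU was at 959 normalised RPM against 642 at RC4. Whether stability itself changed was not tested. The label enters uridines, of which the longest annotated transcripts of Mt1 and Mt2 hold 148 and 128 and that of Slc30a1 holds 1496. After a linear fit on log2 of the uridine number over all genes, Mt1 was at -0.67 to -0.28, between the 18.7th and 46.7th percentile, and Mt2 at -0.55 to 0.33, between the 22.3rd in AS and the 75.2nd at RC4. Slc30a1 was still low in NT at 0 h, NT at 4 h and AS, at -2.16, -1.88 and -2.27 (percentiles 2.3, 4.0 and 0.9). At RC4 it was at -0.70, at the 31.9th percentile.

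In total RNA, C2C12 carried both metallothioneins at lower levels after differentiation. In NT total RNA Mt1 was at 865 and 914 normalised RPM in MB and at 299.6 and 294 in MT, and Mt2 at 1159 and 900.0 in MB and at 237 and 232 in MT. Mt1 was 2.99-fold lower in MT (log2 fold change -1.58, SE 0.09, edgeR adjusted p = 9e-10) and Mt2 4.39-fold lower (-2.13, SE 0.12, adjusted p = 4.4e-10). They were 2 of the 29.3% of 10197 genes called lower, and 61.8% were called in either direction. Slc30a1 was at 45.5 and 37.8 in MB and at 39.6 and 30.3 in MT, and was not called (-0.25, SE 0.18, adjusted p = 0.24). All 7 myotube markers moved with this comparison, as did 2 of 3 myoblast markers (Myod1, log2 fold change 2.15, and Des, 2.32) and 5 of 6 fibroblast markers, of which 4 were higher in MT (1.54 to 3.06) and Vim lower. Their part in these differences was not tested. In NT cytoplasmic RNA at 0 and 4 h the 2 states overlapped. Mt1 was at 554 and 1563 normalised RPM in MT against 1207 and 1035 in MB, and Mt2 at 375 and 1851 against 1239 and 1989.

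Stress and recovery in C2C12 were read in cytoplasmic RNA. In MB, Mt1 went from 1207 and 1035 normalised RPM in NT to 3768 in AS and 13345 at RC4, Mt2 from 1239 and 1989 to 4696 and 18820.0, and Slc30a1 from 21.3 and 15.7 to 57.3 and 118. All 3 rose in AS by 2.91- to 3.36-fold, and at RC4 by 11.9-, 11.7- and 6.36-fold, with 3.8% and 7.61% of genes 2-fold or more higher. In MT, Mt1 was at 554 in NT at 0 h, 1563 in NT at 4 h, 964 in AS and 2347 at RC4, Mt2 at 375, 1851, 822 and 3126, and Slc30a1 at 23.3, 68.4, 45.8 and 103. The NT library at 4 h was above the AS library for each gene, and 2.3 (log2) above NT at 0 h for Mt2. Hmox1, the heme oxygenase that arsenite strongly induces, was at 17.6 normalised RPM in that library against 23.8 in NT at 0 h and 321 in AS. The glutathione synthesis gene Gclm went the other way, at 92.4 in that library against 51.4 in NT at 0 h and 53.6 in AS. What set this library apart was not tested. Against the mean of both NT libraries, the MT ratios were 0.911, 0.738 and 0.999 in AS and 2.22, 2.81 and 2.24 at RC4, where 3.58% and 6.34% of genes were 2-fold or more higher. Against NT at 0 h alone, they were 1.74-, 2.19- and 1.97-fold in AS and 4.24-, 8.34- and 4.40-fold at RC4. Against NT at 4 h alone, they were 0.616, 0.444 and 0.669 in AS and 1.50-, 1.69- and 1.50-fold at RC4.

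Over all 8 cytoplasmic C2C12 libraries, with cell state as a term, edgeR called all 3 genes higher at RC4. The log2 fold changes were 2.42 (SE 0.55, adjusted p = 0.025) for Mt1, 2.52 (SE 0.62, adjusted p = 0.034) for Mt2 and 1.81 (SE 0.45, adjusted p = 0.035) for Slc30a1, where 4.87% of 9560 genes were called higher, 3.89% lower and 8.77% in all. In AS none was called, at 0.77 (SE 0.54, adjusted p = 0.66), 0.55 (SE 0.63, adjusted p = 0.81) and 0.73 (SE 0.47, adjusted p = 0.61), where 0.45% of genes were called higher. Without the MT NT library at 4 h, the RC4 changes were 2.96, 3.35 and 2.45 (adjusted p = 0.00071, 0.00012 and 0.00084) and the AS changes 1.36, 1.38 and 1.35 (adjusted p = 0.19, 0.086 and 0.11). Without the MB AS library, the AS changes were 0.20, -0.14 and 0.22. The RC4 calls also moved with other libraries, controls included, while the direction stayed. Mt1 lost its call without the MB NT library at 0 h (2.13), the MB NT library at 4 h (2.06) or the MB RC4 library (1.44). Mt2 lost it without these (2.14, 2.36 and 1.79), and without the MB AS (2.64), MT AS (2.64) or MT RC4 library (3.20). Slc30a1 lost it without these 6 (1.68, 1.56, 1.41, 1.88, 1.88 and 2.27) and without the MT NT library at 0 h (1.66). The adjusted p of these fits lay between 0.057 and 0.31.

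**Figure D3:**
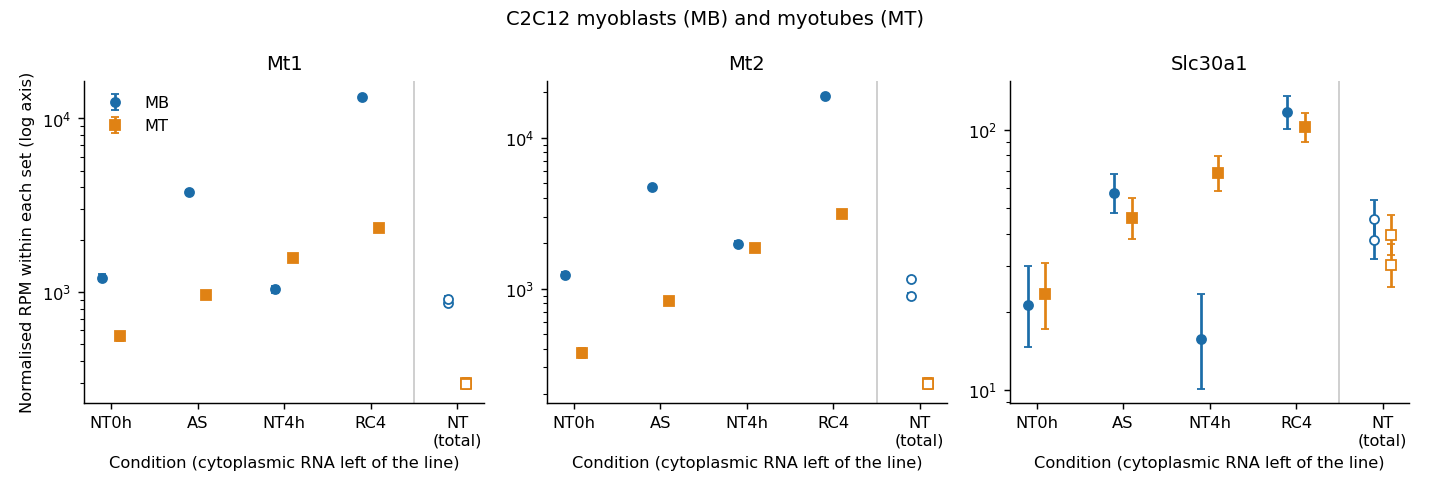
Normalised RPM (log axes) of each gene in C2C12 myoblasts (MB) and myotubes (MT): cytoplasmic RNA in 4 conditions, 1 library each, and 2 NT libraries of total RNA (open symbols), with exact Poisson 95% intervals. MT at NT4h lies above MT at AS for all 3 genes, and Mt1 and Mt2 are lower in MT than in MB in total RNA.

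TIA1 is an RNA-binding protein that prefers U-rich sequence and assembles into stress granules. Both metallothionein RNAs were depleted in its immunoprecipitate. In NT, Mt1 was at 65.6 and 89.4 normalised RPM in the immunoprecipitates against 722 and 557 in their inputs, and Mt2 at 101 and 49.8 against 662 and 308. Slc30a1 went the other way, at 25.1 and 33.1 against 20.0 and 16.6. In AS, Mt1 was at 173 and 127 against 1381 and 751, Mt2 at 110.5 and 126 against 1387 and 725, and Slc30a1 at 112 and 78.2 against 35.5 and 61.5. With the lysate as a term, edgeR gave log2 changes in NT of -3.04 for Mt1 (SE 0.32, adjusted p = 0.00022) and -2.67 for Mt2 (SE 0.33, adjusted p = 0.00044), where 9.9% of 9711 genes were called lower and 8.63% higher. In AS they were -2.78 for Mt1 (SE 0.32, adjusted p = 0.00037) and -3.09 for Mt2 (SE 0.34, adjusted p = 0.00032), where 8.97% were called lower and 7.6% higher.

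Slc30a1 was above input in each of 4 lysates, by 0.33 and 1.00 (log2) in NT and 1.66 and 0.35 in AS, and was not called in NT (0.66, SE 0.45, adjusted p = 0.37) or in AS (1.00, SE 0.44, adjusted p = 0.15). Its depth there was 33 to 106 reads per input. Ranked from the highest change, Slc30a1 was at 3095 of 9711 genes in NT and at 2196 in AS. The change of the TIA1 ratio from NT to AS was 0.26 (SE 0.43) for Mt1, -0.41 (SE 0.45) for Mt2 and 0.35 (SE 0.63) for Slc30a1, with an adjusted p of 1 each, where 0.0103% of genes were called. Without the first AS input, the AS changes of Mt1 and Mt2 were -2.56 and -2.52 with adjusted p = 0.082 and 0.069, and without the first AS immunoprecipitate -2.57 and -2.53 with adjusted p = 0.075 and 0.063.

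**Figure D4:**
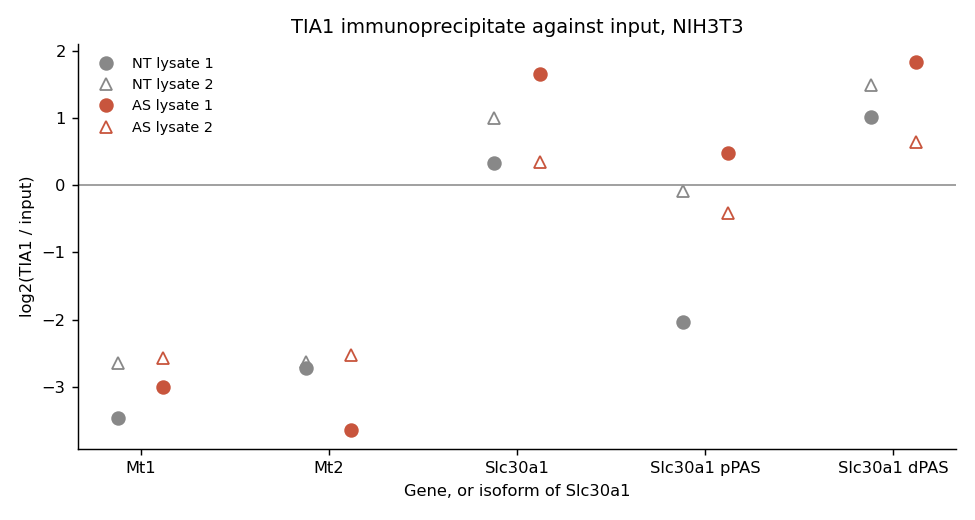
log2 of the TIA1 immunoprecipitate over input (vertical axis, normalised RPM) for Mt1, Mt2 and Slc30a1 and for reads at the pPAS and dPAS of Slc30a1, 1 symbol per lysate. Mt1 and Mt2 lie between -3.65 and -2.52, and the dPAS of Slc30a1 lies above 0 in all 4 lysates.

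Of the 3 genes only Slc30a1 used more than 1 major PAS. In NIH3T3 total RNA its pPAS and dPAS were its 2 most used sites, and the second dPAS had no listed reads in 7 of 10 libraries. The share of dPAS reads over pPAS and dPAS reads was 45.6%, 40.0% and 29.2% in NT total RNA and 53.7%, 51.2% and 28.2% in AS. The means were 38.3% ± 8.35 and 44.3% ± 14.1 (SD, n = 3). Without regard to pairs, the difference of 6.1 percentage points was within the spread between libraries (exact permutation test, two-sided, p = 0.6). The smallest p that 3 against 3 can give is 0.1, and the share was not tested within pairs. The relative expression difference, the change in log2(dPAS/pPAS), was 0.47, 0.65 and -0.07 for numbers 1, 2 and 4. In number 4 the share was 26.2% at RC4 (Wilson 95% interval 20.5 to 32.7) and 34.8%, 38.6% and 25.9% at RC8, RC12 and RC24, with 23 to 44 reads at these later times. All of these intervals overlapped that of NT number 4, 18.2 to 43.2.

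Fractions differed more than conditions. In 4sU the share was 91.5% and 86.2% in NT at 0 and 4 h, 81.3% in AS and 82.7% at RC4, and in Ft it was 57.7%, 43.9%, 47.8% and 55.1%. The lowest Wilson bound in 4sU, 78.8%, was above the highest in Ft, 68.0%, and with all distal sites counted the shares were 86.5% to 94.8% in 4sU and 60.6% to 69.7% in Ft. Labelled Slc30a1 RNA thus ended mostly at distal sites and Ft RNA at both, on values not adjusted for uridines. Cut at the dPAS the transcript holds 1471 uridines and cut at the pPAS 461, for which the fit over all genes gives a difference in log2(Ft/4sU) of -0.90 to -0.83 between them. Unadjusted, reads at the pPAS were at -0.27 and -0.21 in NT, and reads at the dPAS at -3.24 and -3.20. In AS the values were -1.45 at the pPAS and -3.70 at the dPAS, and at RC4 0.34 and -1.62. Adjusted by that fit, the pPAS was at -0.46 and -0.47 in NT, -1.66 in AS and 0.02 at RC4, and the dPAS at -2.61, -2.57, -3.06 and -1.06, below the pPAS in each condition. In 4sU the pPAS rose 7.37-fold in AS and 4.56-fold at RC4, and the dPAS 3.73- and 2.53-fold.

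In the cytoplasm of C2C12 the share was lowest at RC4 in both states. It was 55.6% and 41.7% in MB NT, 46.7% in AS and 23.9% at RC4 (17.7 to 31.6), and 74.2% and 52.0% in MT NT, 47.3% in AS and 17.7% at RC4 (13.0 to 23.7). The MB NT shares rest on 18 and 24 reads, and their intervals, 33.7 to 75.4 and 24.5 to 61.2, overlap that of AS, and the interval at 4 h overlaps that of RC4 too. With all distal sites counted, RC4 was again lowest, at 28.8% in MB (22.6 to 35.9) and 24.0% in MT (19.0 to 29.9), and the MB interval again overlaps that of MB NT at 4 h. In MB, pPAS reads were 9.92-fold above NT at RC4 and dPAS reads 3.43-fold. In MT, pPAS reads at RC4 were 18.3-fold above NT at 0 h and 2.85-fold above NT at 4 h, and dPAS reads were 1.37-fold and 0.567-fold, so that the direction at the dPAS turned with the NT library. The NT library at 0 h held 8 pPAS and 23 dPAS reads. In NT total RNA of C2C12 the share was 65.8% and 64.1% in MB and 67.9% in both MT libraries, with overlapping intervals.

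TIA1 immunoprecipitates held a larger dPAS share than their inputs in 4 of 4 lysates. In NT the shares were 91.4% against 56.4% in the first lysate and 59.9% against 33.3% in the second, and in AS 80.7% against 62.1% and 47.3% against 30.1%. With all distal sites counted, the immunoprecipitates held 67.6% to 92.3% and the inputs 33.3% to 67.6%. Both lysates of number 2 had lower shares than those of number 1, in input and immunoprecipitate alike. Reads at the dPAS were above input by 1.02, 1.50, 1.83 and 0.65 (log2), and those at the pPAS at -2.03, -0.08, 0.48 and -0.41. The NT value of -2.03 comes from 6 reads. Transcripts that end at the distal sites hold the aUTR, with 64 TTTT matches in 3083 nt and 32.8% T. The stretch before the pPAS held 8 matches in 350 nt and 34.9% T, so the aUTR was longer but not richer in T. The 3′UTR of Mt2, depleted in the immunoprecipitate, held 5 matches in 140 nt and 28.6% T. A link between these matches and the TIA1 ratios was not tested.

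**Figure D5:**
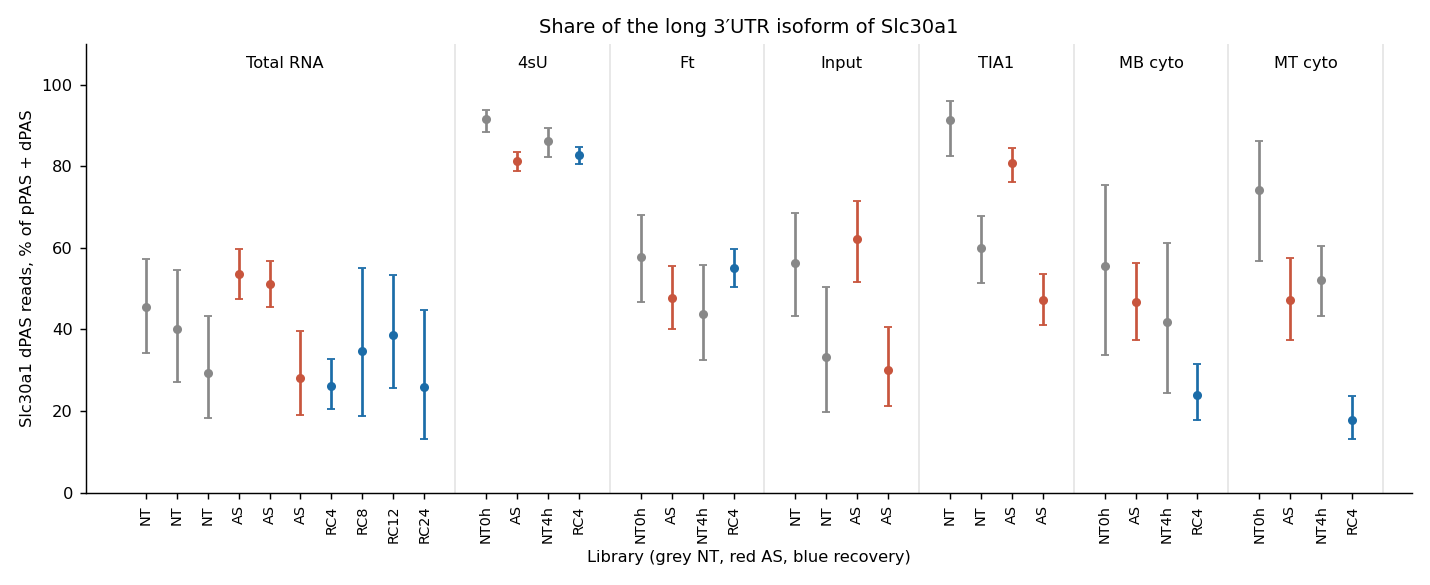
Share of reads at the dPAS of Slc30a1 among its pPAS and dPAS reads (percent) in each 3′READS library other than C2C12 total RNA, with Wilson 95% intervals, by set of libraries and condition. All 4 4sU libraries lie at 81.3% or above, all 4 Ft libraries at 57.7% or below, and RC4 is the lowest of each cytoplasmic C2C12 set.

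The tests for AS and RC4 called few genes of any kind, 0%, 0%, 0.481% and 8.77% in total RNA AS, input AS, and C2C12 AS and RC4, so that few calls in short lists are no result about the lists. Of the other zinc exporters of the Slc30 family, 5 of 9 could be tested and 0 were called for AS or RC4, with list medians (log2) of -0.20 in total RNA AS, -0.04 in input AS, and -0.22 and -0.23 in C2C12 AS and RC4. Of the zinc importers of the Slc39 family, 8 or 9 of 14 could be tested and 0 were called there, with medians of -0.17, 0.04, 0.30 and -0.24. The medians over all genes tested were -0.03, -0.007, 0.023 and -0.033. Of 7 copper handling genes 5 or 6 were tested and 0 called, with medians of -0.08, -0.17, -0.26 and 0.27. In these comparisons 19, 163, 1091 and 2175 genes had an unadjusted p below 0.05.

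Mtf1 itself was called higher at RC4 in C2C12 cytoplasm (log2 fold change 1.38, SE 0.33, edgeR adjusted p = 0.031) and higher in MT than in MB total RNA (0.81, SE 0.29, adjusted p = 0.024). It was at 9.32 and 6.54 normalised RPM in MB NT, 10.4 in AS and 27.3 at RC4, and at 12.4 and 13.2 in MT NT, 15.6 in AS and 26.0 at RC4. In NIH3T3 total RNA Mtf1 was at 20.0, 14.8 and 10.2 normalised RPM in NT, for numbers 1, 2 and 4, and at 20.7 at RC4. Of 12 glutathione and arsenic handling genes, 4 of 9 tested were called higher at RC4 in C2C12 and 0 lower, with a list median of 0.84. They were Gclm, a subunit of the enzyme that starts glutathione synthesis (log2 fold change 1.92), the thioredoxin reductase gene Txnrd1 (2.64), Hmox1 (7.54) and the cystine carrier gene Slc7a11, which was listed at 0 in all 4 NT libraries and at 33.3 and 37.4 normalised RPM at RC4 in MB and MT. Hmox1 was the 1 gene of that list called in AS (4.07), where the list median was 0.04. Of 5 other exporters tested in TIA1 immunoprecipitates, Slc30a4 was called higher than input in NT (2.04) and AS (1.53), and Slc30a9 in AS (1.1). Of 6 copper genes, the pump gene Atp7a was called higher (2.00 and 2.04) and the chaperone gene Atox1 lower (-2.38 and -2.33). Of 9 importers, Slc39a9 was called higher (1.85) and Slc39a7 lower (-1.19), both in NT alone. Of 8 glutathione and arsenic handling genes, Gsto1 was called lower in NT (-1.36) and AS (-1.29). Gss was lower in NT (-1.41) and Gclc higher in AS (1.28). Of all genes, 8.63% were called higher and 9.9% lower in NT, and 7.6% and 8.97% in AS. The other metallothionein genes, Mt3 and Mt4, had few reads. Mt3 was listed at 4.82 normalised RPM in NIH3T3 total RNA and 1.48 in 4sU, both at RC4, and Mt4 at 3.23 in total RNA at RC8 and at 1.98 and 3.60 in Ft in AS and at RC4.

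Likeness of pattern was read over the 38 3′READS libraries, after the mean of each set of libraries was taken off log2(RPM + 1). Mt1 and Mt2 followed each other with a Pearson r of 0.88, Mt1 and Slc30a1 with 0.73, and Mt2 and Slc30a1 with 0.54. Nearest to Slc30a1 of 7881 genes were Hspa1b (r = 0.89) and Dnajb1 (0.83), both heat shock chaperone genes, then Maff (0.81), a small Maf transcription factor, Hmox1 (0.79) and Dnajb9 (0.79), an endoplasmic reticulum chaperone gene. Nearest to Mt1 were the transcription factor gene Gata4 (0.84), the chaperone gene Dnaja1 (0.83), the growth factor gene Hbegf (0.82), the AN1 zinc finger gene Zfand2a (0.82) and the phosphatase gene Dusp4 (0.81). Nearest to Mt2 were the autophagy receptor gene Sqstm1 (0.81), the co-chaperone gene Stip1 (0.78), Gata4 (0.78), Phlda1 (0.76) and the phosphate carrier gene Slc20a1 (0.75). These are descriptions across libraries that share treatments and depth, and carry no test.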

How the data were processed

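The deposited 3′READS tables hold read counts per PAS and the RNA-seq tables read counts on coding sequence, both as whole numbers that the authors did not normalise, and rows under 5 reads are absent. Per the labels and the methods of the study, reads were trimmed with Cutadapt and mapped to mm9 with bowtie2 (3′READS, at least 2 nongenomic Ts required, PASs within 24 nt joined) or STAR (RNA-seq). PAS reads were summed per gene (GENCODE vM1 of NCBIM37, the same build: no PAS lay past a chromosome end); 1136 positions that fitted several genes were left out. Libraries were scaled by median-ratio factors within a set. Tests were edgeR 4.0.16 quasi-likelihood tests on counts (R 4.3.3) over all genes that passed its expression filter, and all 3 genes passed in each of 8 comparisons. Alternatives were TMM, library totals, DESeq2 1.42.0, other filters, PASs of the last exon only, the replicate number as a block, and each library left out in turn. Each MT NT library alone, and the uridine fit for Slc30a1 isoforms, were added after the data were seen. Same-numbered total RNA libraries deviated together (r = 0.89, 0.87 and 0.82 across genes for numbers 1, 2 and 4), so the numbers were taken to pair them. NT at 0 and 4 h were taken as 1 group. Single libraries were given ratios and no test. The study calls the replicates of several sets biological without saying what separated them, so p-values measure the spread between these libraries. Ratios of Ft to 4sU used genes with 10 or more reads in both. For shares of genes that were 2-fold or more higher, or that did not overlap, genes with a mean of 20 or more reads were used. Genes of like pattern were the 5 with the highest r for each member among those with a mean of 10 or more RPM. The members, gene lists and tests were chosen with earlier results of these data known. The fits were tested on simulated counts.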

Additional observations from a re-analysis of the deposited data

Results flagged for a closer look

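In C2C12 cytoplasm, the AS library stood above the mean of NT for Mt1 and Mt2 in MB and below it in MT. The log2 ratios were 1.75 in MB and -0.14 in MT for Mt1, and 1.54 and -0.44 for Mt2. The difference between MB and MT was not tested, since each state had 1 AS library. Against the NT library at 0 h alone the MT ratios were 0.80 and 1.13, so the sign in MT rests on the NT library at 4 h.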

How the results depend on the processing

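Of 162 refits of the 24 tested changes that left out no library, 158 stayed on the same side of the threshold. No change called in either fit turned direction. The replicate block brought Mt1 (1.59) and Mt2 (1.63) in total RNA AS and Mt2 in input AS (1.17, adjusted p = 0.023) past the threshold, and library totals took Slc30a1 at C2C12 RC4 to 1.54 (adjusted p = 0.062). Inputs of the same number deviated together (r = 0.67), but with only 2 libraries a group. Mt1 (0.71, adjusted p = 0.31) and Slc30a1 (1.35, adjusted p = 0.056) missed the threshold in the blocked input fit. The block changed no other call. Leaving out 1 library kept every direction of a called change, and 20 of 162 such fits lost a call: at C2C12 RC4 the range was 1.44 to 3.24 for Mt1, 1.79 to 3.35 for Mt2 and 1.41 to 2.45 for Slc30a1 (below the threshold in 3, 6 and 7 of 8 fits), and for TIA1 in AS it was -3.00 to -2.56 for Mt1 and -3.65 to -2.52 for Mt2, with 2 of 8 fits short of the threshold for each (a lone library was taken to vary like the other groups). Of the uncalled changes, Mt2 in C2C12 AS ran from -0.14 to 1.38.

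Genes called higher or lower moved by over 1.5 times as follows: total RNA 0 to 9 higher with the block; input 0 to 72 higher and 10 lower with the block, 24 and 1 by DESeq2, 4 and 0 unfiltered; TIA1 in NT 838 and 961 to 173 and 165, and in AS 738 and 871 to 21 and 75, without the block; their difference from 0 and 1 to 8 and 13 by DESeq2, with 4 to 7 lower under library totals or other filters; C2C12 AS 43 and 3 to 153 and 50 by DESeq2, 112 and 19 with over 5 reads required and 0 lower on library totals; C2C12 RC4 466 and 372 to 282 and 647 on library totals. With 1 library left out, TIA1 in AS went to 0 and 0 without the first AS input or immunoprecipitate, to 13 and 72 without the second AS input and to 13 and 81 without the second immunoprecipitate, TIA1 in NT to as few as 237 and 379 (second NT input), C2C12 AS to as few as 5 and 0 (MB AS) and C2C12 RC4 to as few as 210.0 and 92 (MB RC4).

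Of 84 recomputed single-library ratios, 74 moved by less than the spread of NT. Library totals gave Slc30a1 2.47 in RNA-seq AS, and at RC4 gave Mt1 0.32, Mt2 -0.15 and Slc30a1 3.20 in RNA-seq, Mt1 1.83 in 4sU, Mt1 1.99, Mt2 2.25 and Slc30a1 2.63 in Ft, and Mt1 3.20 and Slc30a1 2.29 in MB. The uridine fit gave log2(Ft/4sU) of -0.50, -0.28, -0.67 and -0.35 for Mt1 (NT 0 h, NT 4 h, AS, RC4), -0.21, 0.06, -0.55 and 0.33 for Mt2, and -2.16, -1.88, -2.27 and -0.70 for Slc30a1; centring on the median gave 1.13 for Mt1 and -0.99 for Slc30a1 at RC4. The dPAS difference of Slc30a1 stayed between 1.4 and 14.2 percentage points with 1 library left out. Depth limits Slc30a1 most: 48 reads in NT number 4 left its share between 18.2% and 43.2%, and the recovery course, RNA-seq and fractions have 1 library per condition.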

Other observations

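A minor PAS of Mt2 lay 85 nt upstream of its main PAS and took 458 of 204774 reads (0.224%). It was listed, at 5 or more reads, in 17 of 38 libraries, among them each RC4 library. Its share was highest in total RNA outside RC4, at 1.30% (0.759 to 2.20) at RC12, 0.756% in AS number 1 (0.347 to 1.64) and 0.548% at RC8, on 6 to 15 reads. At RC4 its share was 0.281% of Mt2 reads in NIH3T3 total RNA (Wilson 95% interval 0.196 to 0.404), 0.356% in 4sU, 0.301% in Ft (0.249 to 0.363), 0.311% in MB and 0.225% in MT. In Ft, the 1 fraction in which both NT libraries listed it, NT shares were 0.146% (0.0814 to 0.261), which overlaps RC4, and 0.0808% (0.037 to 0.176). The share in other NT libraries, where fewer than 5 reads are not listed, was not tested.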
